A study of Mus musculus with 9 samples.

Results

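Mitosis and G2/M genes encode the machinery that takes a cell from the end of DNA synthesis through chromosome segregation to the separation of daughter cells. A list of 55 such genes was looked up by symbol in a table of FPKM values (fragments scaled by transcript length and by the library's mapped total), and members were kept if the symbol occurred once and its mean over all 9 libraries was 1 FPKM or more. This left 26 of the 55 genes, among 6965 tested genes in all. The other 29 had no row and are not analysed here. They include Cdk1, all 4 listed cyclins, Aurkb, Ttk, Cdc20, Birc5, Top2a and Mki67. The lowest of the 26, Kif14, had a mean of 4.77 FPKM and no listed gene with a row fell under the minimum.

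All libraries came from ROC6, a mouse oral squamous cancer line grown in serum-containing medium, sequenced from poly(A) RNA. The 3 groups of 3 libraries were cells with a Csmd3 knockout made with guide 1, cells with a Csmd3 knockout made with guide 2, and a control labelled wild type for Csmd3, a gene for a large membrane protein with CUB and sushi domains. The design text calls the knockouts clone 1 and clone 2, so each guide stands for what appears to be 1 clone, and a feature of a clone cannot be told apart from an effect of its guide. Whether the replicates were separate cultures is not given, so the p-values reflect only how far these libraries scatter, and that scatter may be technical. The labels were not checked against the targeted gene, since Csmd3 is not analysed here.

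Each of the 6965 tested genes had its guide 1 and guide 2 means either both above or both below the control mean. The name the submitters gave the table speaks of differences common to the knockouts, so a shared direction is a property of the rows and is not read as a result below. In the comparison of guide 2 with guide 1 the control cancels from the difference, but the property still sets which genes enter it, since no tested gene has the guides on opposite sides of control. Both comparisons with the control use the same 3 control libraries. The headers of these control values carry the mark g1, as those of guide 1 do, and how the controls match guide 2 cells is not given. Within a group, the coefficient of variation of a member was 0.546% to 14.3%, with a median of 4.78%. Across genes the correlation of log2 values was 0.991 to 0.993 within groups and 0.893 to 0.950 between them. Steps among the lowest FPKM values gave relative depths of 0.632 (guide 2 replicate 1) to 1.13 (guide 2 replicate 3) against control replicate 1, and total depth is unknown. In bulk RNA, fewer cells in G2 and mitosis cannot be told apart from less mitotic RNA per cell.

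As background, entry into mitosis is driven by the kinase CDK1 with cyclin B, which CDC25 phosphatases switch on. Aurora and Polo kinases then mature the centrosomes and correct faulty attachments, kinetochores couple chromosomes to microtubules, and the spindle checkpoint holds back the anaphase-promoting complex until every kinetochore is attached. Transcripts of these genes accumulate together in G2, under the B-MYB and FOXM1 complexes, and are held down in resting cells by the DREAM complex. In squamous epithelium they mark the proliferating basal cells.

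Most of the 26 genes were lower in the guide 1 libraries than in the control, and fewer of them were called lower with guide 2. With guide 1, 20 of the 26 were lower than control and 3 were higher (limma adjusted p under 0.05), which is 76.9% and 11.5% of the members. Over all tested genes 37.9% were called lower, 30.2% higher and 68.1% in either direction in this comparison. In 23 members the guide 1 and control libraries did not overlap, 20 with guide 1 lower and 3 with it higher, where 71.9% of all tested genes were separated so, 39.7% with guide 1 lower and 32.3% with it higher. The median log2 difference of the members was -0.32, beside -0.04 over all tested genes. The largest fall, in Spc25, left 50.4% of the control level.

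With guide 2, 11 of the 26 members were lower and 4 were higher than control. These are 42.3% and 15.4% of the members, and over all tested genes the shares were 33.5% and 31.9%, 65.4% in either direction. The libraries did not overlap in 14 members lower and 4 higher with guide 2, beside 35.5% and 33.1% of all tested genes, 68.6% in all. The median was -0.14, against -0.03 over all tested genes. For guide 2, then, the share of members called lower was nearer to that of all genes than for guide 1, and the share called higher was below it. For the mean of both guides, 19 members were lower and 4 higher, where 43.3% of all tested genes were lower, 37.8% higher and 81.1% in either direction.

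Summed over the 26 members, the 3 control libraries stood at 747, 715 and 783 FPKM, the guide 1 libraries at 594, 551 and 587, and the guide 2 libraries at 675, 689 and 702. The 3 groups did not overlap in this sum. The median log2 difference of the members from their control mean was -0.30, -0.35 and -0.27 in the guide 1 libraries. Over all tested genes it was -0.03, -0.06 and -0.03 there. In the guide 2 libraries it was -0.15, -0.13 and -0.13, beside -0.04, -0.02 and -0.01 over all tested genes. The control libraries had 0.01, -0.06 and 0.05, beside 0.02, -0.01 and -0.01. Control replicate 2 thus had the lowest mitotic level of the controls, and all 6 knockout libraries lay below it in the sum.

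**Figure D1:**
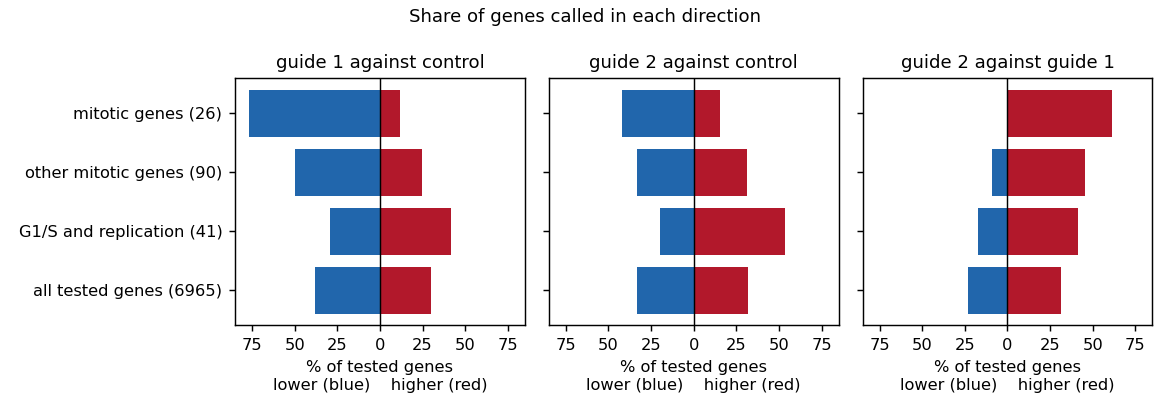
Share of tested genes called lower (blue, to the left) and higher (red, to the right) at a limma adjusted p under 0.05, in percent, for the 26 mitotic genes, 90 other mitotic genes, 41 genes of G1/S and DNA replication and all 6965 tested genes, in 3 comparisons. With guide 1, 76.9% of the 26 were lower, and between guides none of them was lower with guide 2. The 90 other genes include 14 transcriptional regulators of mitotic genes.

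**Figure D2:**
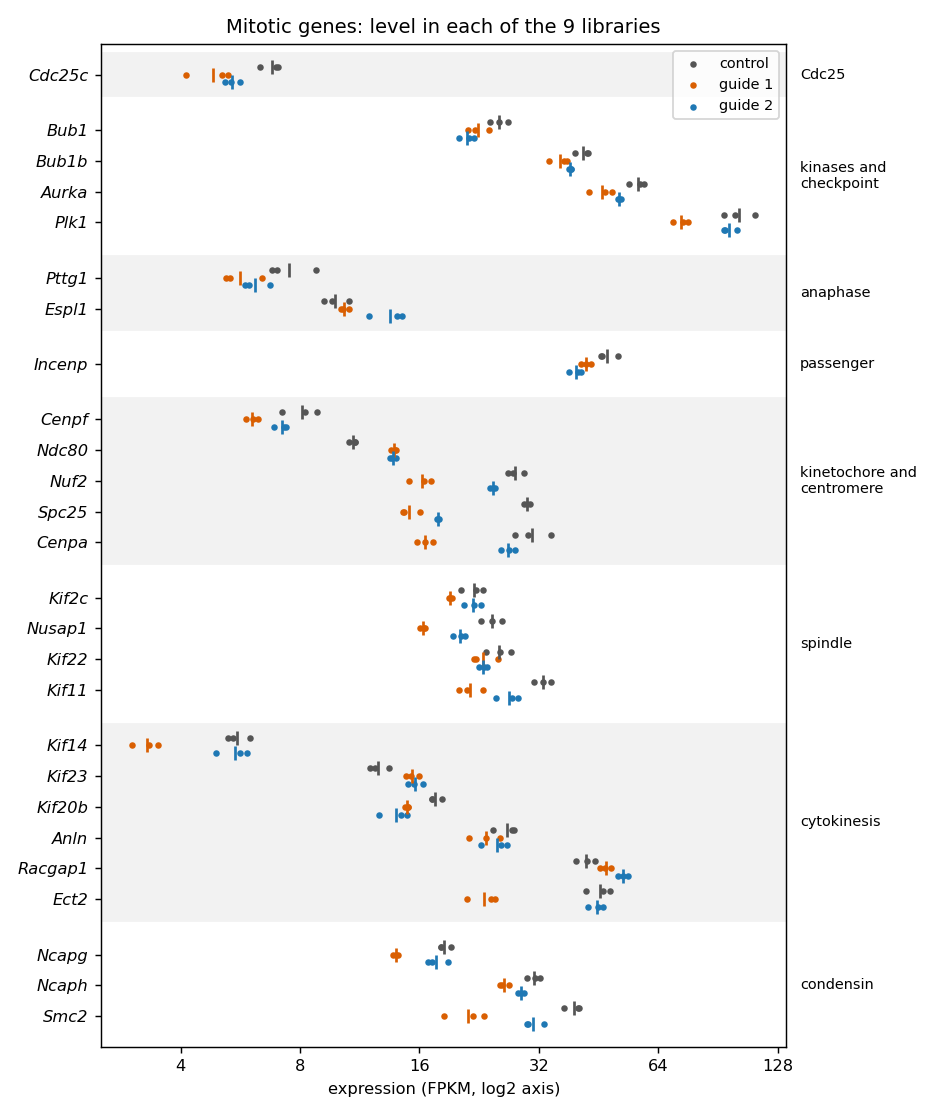
Level of each of the 26 genes in FPKM (log2 axis) in the 9 libraries, grouped by role. Points are libraries and vertical marks group means. The guide 1 points of Ect2, Smc2, Cenpa, Spc25 and Nuf2 lie clear of the control points.

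Mitotic promoters are known for CCAAT boxes, bound by NF-Y, and for the cell cycle genes homology region (CHR), bound by the DREAM and B-MYB complexes, so the members' promoters were read for these letters. RefSeq promoter windows of build GRCm38.p6, from 250 bases before to 50 after a transcription start, were available for 24 of the 26 genes, all but Cdc25c and Incenp. The letters searched on both strands were CCAAT for the box and TTTGAA, or the variant TTCGAA, for the CHR. No matches in these windows overlapped one another. A CHR match was present in 20 of the 24 genes and a CCAAT match in 16, and all of those 16 held both. Of the 4971 tested genes with a window, 16.1% held a CHR match, 42.4% a CCAAT match and 6.86% both. Over all 27025 genes with a window, the shares were 21.7%, 41.1% and 8.61%.

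The windows below belong to the 4 genes with the largest fall in the mean of both guides that hold both elements, Spc25, Smc2, Cenpa and Ect2, and to Kif23 and Racgap1, which rose with both guides and hold both elements too. Capitals mark every CCAAT and CHR match, written as ATTGG or TTCAAA where the letters are on the other strand.
Spc25, chr2:69206164-69206463, minus strand: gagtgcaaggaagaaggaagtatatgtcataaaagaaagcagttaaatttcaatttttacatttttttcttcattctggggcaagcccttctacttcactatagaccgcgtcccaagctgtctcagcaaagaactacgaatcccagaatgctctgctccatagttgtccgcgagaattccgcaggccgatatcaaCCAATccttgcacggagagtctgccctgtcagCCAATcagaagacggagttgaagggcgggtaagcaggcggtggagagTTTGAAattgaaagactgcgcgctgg
Smc2, chr4:52438971-52439270, plus strand: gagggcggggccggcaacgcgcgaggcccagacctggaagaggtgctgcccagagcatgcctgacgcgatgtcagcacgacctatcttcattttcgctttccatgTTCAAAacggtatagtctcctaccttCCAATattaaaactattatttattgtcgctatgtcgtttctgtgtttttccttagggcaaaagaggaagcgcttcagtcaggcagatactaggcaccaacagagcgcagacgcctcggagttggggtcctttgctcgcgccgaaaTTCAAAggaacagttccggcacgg
Cenpa, chr5:30666636-30666935, plus strand: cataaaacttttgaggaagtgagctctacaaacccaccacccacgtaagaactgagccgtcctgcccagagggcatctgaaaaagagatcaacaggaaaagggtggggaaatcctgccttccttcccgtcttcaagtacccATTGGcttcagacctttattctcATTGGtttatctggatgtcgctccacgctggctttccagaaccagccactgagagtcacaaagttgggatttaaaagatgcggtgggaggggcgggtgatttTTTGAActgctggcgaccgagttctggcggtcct
Ect2, chr3:27153805-27154104, minus strand: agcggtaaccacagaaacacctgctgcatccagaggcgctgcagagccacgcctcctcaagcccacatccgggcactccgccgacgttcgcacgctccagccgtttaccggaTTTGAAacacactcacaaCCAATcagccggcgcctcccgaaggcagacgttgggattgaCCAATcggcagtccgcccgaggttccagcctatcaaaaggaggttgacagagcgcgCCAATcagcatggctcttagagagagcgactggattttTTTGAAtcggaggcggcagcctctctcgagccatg
Kif23, chr9:61946750-61947049, minus strand: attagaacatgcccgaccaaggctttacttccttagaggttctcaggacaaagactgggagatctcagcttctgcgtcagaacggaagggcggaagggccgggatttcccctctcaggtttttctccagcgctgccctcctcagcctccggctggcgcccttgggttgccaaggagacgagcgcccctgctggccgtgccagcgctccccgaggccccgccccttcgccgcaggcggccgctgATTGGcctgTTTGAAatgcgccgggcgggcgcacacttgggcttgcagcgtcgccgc
Racgap1, chr15:99651607-99651906, minus strand: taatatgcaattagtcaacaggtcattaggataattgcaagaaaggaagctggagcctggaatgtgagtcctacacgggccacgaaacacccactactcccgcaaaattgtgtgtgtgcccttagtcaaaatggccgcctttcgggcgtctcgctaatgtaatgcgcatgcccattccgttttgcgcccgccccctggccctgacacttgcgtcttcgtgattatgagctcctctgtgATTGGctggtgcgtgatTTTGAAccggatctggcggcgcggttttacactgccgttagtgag

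In Kif23 the CCAAT box starts 7 bases before the transcription start and the CHR 2 bases after it. Racgap1 has nearly the same layout, with positions of 12 before and 5 after. In Spc25 and Cenpa a pair of CCAAT boxes lies upstream, at 55 and 23 bases before the start in Spc25 and at 109 and 86 in Cenpa, and the CHR starts 24 and 16 bases after the start. Ncaph, Nuf2, Nusap1 and Pttg1 held none of the letters in their windows, and Nuf2 and Nusap1 fell with both guides. The letters were thus present in genes that rose and in genes that fell, and absent from some that fell. A match describes the letters and is no measurement of binding.

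**Figure D3:**
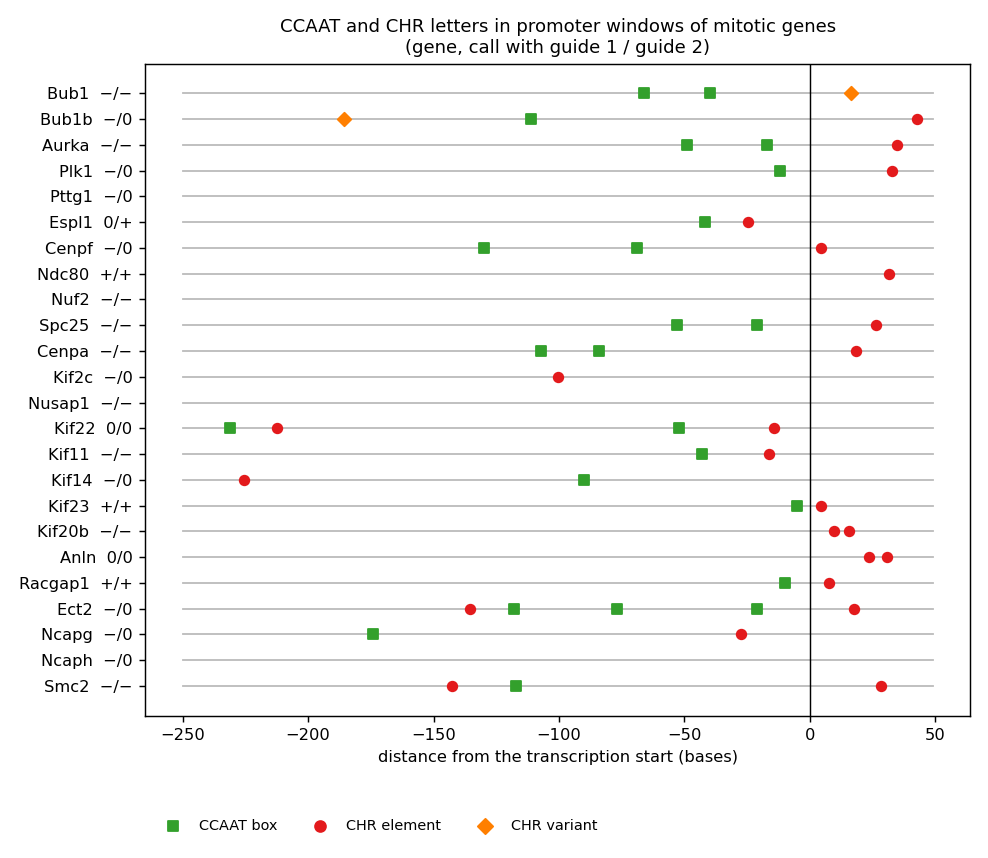
Positions of CCAAT (green), CHR (red) and CHR variant (orange) matches in the promoter windows of 24 mitotic genes, by distance in bases from the transcription start (vertical line). Signs beside each name give the call with guide 1 and guide 2 (plus, higher; minus, lower; 0, not called). For Ect2, which has overlapping windows from a pair of starts, 1 is drawn.

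Cdc25c, the phosphatase that activates CDK1 at mitotic entry, was the only gene of its list of 7 with a row. Its level was 7.03, 6.97 and 6.33 FPKM in the control libraries, 5.09, 4.12 and 5.26 with guide 1, and 5.18, 5.36 and 5.66 with guide 2. All 6 knockout libraries lay below all 3 controls. The log2 differences were -0.42 with guide 1 and -0.28 with guide 2 (SE 0.0802 in each case, limma adjusted p = 0.000855 and 0.0105), and the guides did not differ by the test (limma adjusted p = 0.167). Over the 26 members, all 6 knockout libraries lay below all controls in 14 genes and above them in 3. Across tested genes they lay below in 29% and above in 24.7%, which is 53.7% in all.

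Among kinases and spindle checkpoint genes, Plk1, Aurka, Bub1 and Bub1b had a row, and all 4 fell with guide 1. Plk1, the Polo-like kinase of centrosome maturation and cytokinesis, was the most abundant of the 26 genes, with a mean of 90.6 FPKM. It stood at 99.7, 93.9 and 112 FPKM in the control, 76.1, 69.6 and 73.7 with guide 1, and 101, 94.6 and 93.9 with guide 2. The guide 1 libraries were all below the controls, while the guide 2 libraries lay within or at the lower edge of the control range. The log2 difference was -0.47 with guide 1 (SE 0.0664, limma adjusted p = 0.000102) and -0.08 with guide 2 (limma adjusted p = 0.328), and the guides differed by 0.39 (limma adjusted p = 0.000574).

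Aurka, the Aurora kinase of the spindle poles, followed at 57.6, 54.0 and 58.9 FPKM in the control, 48.8, 42.8 and 46.9 with guide 1, and 50.9, 50.7 and 51.5 with guide 2. It was 81.2% of control with guide 1 and 89.8% with guide 2, where the call was close to the threshold (limma adjusted p = 0.0318). That call was lost without the filter on low values (adjusted p = 0.0557) and on leaving out control replicate 1, control replicate 3 or any guide 2 library, with adjusted p between 0.0596 and 0.0877, and the difference between guides (limma adjusted p = 0.046) was lost under 11 alternatives. These include leaving out guide 1 replicate 2 or 3, any guide 2 library or control replicate 1, with adjusted p up to 0.172.

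The checkpoint kinase Bub1 and the related checkpoint protein Bub1b moved less. Bub1 fell to 88.2% of control with guide 1 and 83.1% with guide 2 (limma adjusted p = 0.0236 and 0.0033). The guide 1 call was lost after trimmed mean rescaling, without guide 1 replicate 2 or 3 and without control replicate 1 or 3, with adjusted p between 0.0554 and 0.0884. Bub1b was at 87.3% of control with guide 1, a fall (limma adjusted p = 0.00675), and at 92.6% with guide 2, short of the threshold (limma adjusted p = 0.0849) except without control replicate 2 (adjusted p = 0.0495).

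At anaphase, separase, encoded by Espl1, cleaves the cohesin that holds sister chromatids together, and securin, encoded by Pttg1, keeps it inactive until then. Espl1 was at 9.60, 9.18 and 10.7 FPKM in the control, 10.1, 10.2 and 10.6 with guide 1, and 11.9, 14.0 and 14.4 with guide 2. The guide 2 libraries lay above all others, with a log2 difference of 0.42 from control (SE 0.0755, limma adjusted p = 0.00069) and 0.35 from guide 1 (limma adjusted p = 0.00295). Guide 1 was at 105% of control, a difference that missed the threshold (limma adjusted p = 0.42).

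Pttg1 was at 6.80, 8.75 and 6.99 FPKM in the control, 5.20, 5.33 and 6.42 with guide 1, and 6.73, 5.80 and 5.94 with guide 2. All knockout libraries were below the controls, by a narrow margin in guide 2 replicate 1. The fall passed with guide 1 (log2 difference -0.35, limma adjusted p = 0.00949), and with guide 2 it did not (-0.24, limma adjusted p = 0.053) unless guide 1 replicate 3, guide 2 replicate 1 or control replicate 1 was left out (adjusted p between 0.0372 and 0.0391). The ratio of Espl1 to Pttg1, both per transcript length, was 1.33 ± 0.249 (SD, n = 3) in control cells, 1.84 ± 0.162 with guide 1 and 2.20 ± 0.378 with guide 2, and no knockout library overlapped the controls in it. With guide 2 this follows from the single genes, as Espl1 lay above and Pttg1 below all controls.

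Incenp, the scaffold of the chromosomal passenger complex that places Aurora B at centromeres, was the only subunit with a row of the 3 on its list. Its level was 46.0, 46.1 and 50.7 FPKM in the control, 43.2, 42.1 and 41.0 with guide 1, and 38.1, 40.9 and 40.3 with guide 2. It was the only member lower in every guide 2 library than in every guide 1 library, although that difference of -0.08 did not pass (limma adjusted p = 0.212). Both guides were below control (limma adjusted p = 0.0124 and 0.00142). After quantile normalization the guide 1 call was lost (adjusted p = 0.0601).

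Kinetochore and centromere genes held the largest fall of the 26, and genes of the NDC80 complex went in opposite directions. This rod of NDC80, NUF2, SPC24 and SPC25 is the main microtubule attachment of the kinetochore, and Ndc80, Nuf2 and Spc25 had a row. Spc25 was at 30.4, 29.3 and 29.9 FPKM in the control, 16.1, 14.5 and 14.6 with guide 1, and 17.8, 17.96 and 17.8 with guide 2. The 3 groups were fully separate, with guide 1 lowest. Its log2 differences of -0.94 with guide 1 and -0.71 with guide 2 (SE 0.0481 in each case, limma adjusted p = 4.89e-08 and 5.23e-07) were the largest of any member in the guide 2 comparison and the largest fall with guide 1.

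Nuf2 fell mostly with guide 1. It was at 26.8, 27.6 and 29.3 FPKM in the control, 17.1, 15.0 and 16.5 with guide 1, and 24.8, 24.2 and 24.6 with guide 2, again 3 separate groups. Guide 1 left 58.1% of the control level and guide 2 87.8% (limma adjusted p = 8.15e-07 and 0.0154), and the guide 2 call was lost without control replicate 3 (adjusted p = 0.0509).

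Ndc80 rose instead, by nearly the same amount with each guide. Its level was 11.01, 10.6 and 10.98 FPKM in the control, 13.9, 13.5 and 14.0 with guide 1, and 13.5, 13.6 and 14.0 with guide 2. All knockout libraries lay above all controls, with log2 differences of 0.32 and 0.31 (SE 0.0429 in each case, limma adjusted p = 7.18e-05 and 0.000114). The guides differed by -0.01 with the same SE (limma adjusted p = 0.832).

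The levels of these partners relative to each other changed accordingly. The FPKM ratio of Spc25 to Ndc80 was 2.75 ± 0.0191 (SD, n = 3) in control cells, 1.09 ± 0.0578 with guide 1 and 1.31 ± 0.0303 with guide 2. For Nuf2 to Ndc80 it was 2.57 ± 0.121, 1.17 ± 0.0608 and 1.79 ± 0.0432. In both ratios the 3 groups were separate in every library. The separation from control follows from the single genes, since Spc25 and Nuf2 were below and Ndc80 above the controls in every knockout library. A ratio within a library does not depend on its scaling. These pairs were chosen after their values were seen, and no test was run on them.

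Cenpa, the histone H3 variant that marks centromeres, was at 27.9, 30.1 and 34.4 FPKM in the control, 17.4, 15.8 and 16.6 with guide 1, and 25.7, 27.9 and 26.9 with guide 2. All knockout libraries lay below the controls, guide 2 replicate 2 by a narrow margin. Guide 1 left 53.8% of the control level, with a log2 difference of -0.85 (SE 0.0723, limma adjusted p = 2.31e-06). With guide 2 it was 87.1% (limma adjusted p = 0.0408), a call lost under 10 alternatives, among them leaving out guide 1 replicate 3, guide 2 replicate 1 or 3, and control replicate 2 or 3, with adjusted p up to 0.132. The guides differed by 0.66 (limma adjusted p = 2.72e-05). Cenpf, a large protein of the outer kinetochore, was at 75.1% of control with guide 1, a fall (limma adjusted p = 0.000957), and at 89.0% with guide 2 (limma adjusted p = 0.0877), which passed only without control replicate 1 (adjusted p = 0.0121).

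Of the spindle genes, Kif11 and Nusap1 fell with both guides. Kif11, the Eg5 kinesin that pushes the spindle poles apart, was at 34.4, 31.2 and 32.8 FPKM in the control, 21.1, 20.2 and 23.2 with guide 1, and 25.02, 27.4 and 28.3 with guide 2. The groups did not overlap, in the order control, guide 2, guide 1. The log2 differences were -0.59 and -0.28 (SE 0.0656 in each case, limma adjusted p = 1.73e-05 and 0.00369).

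Nusap1, which bundles and anchors spindle microtubules, followed the same order, at 25.8, 24.4 and 22.9 FPKM in the control, 16.5, 16.1 and 16.4 with guide 1, and 20.4, 19.5 and 20.8 with guide 2. Exons of Nusap1 overlap those of Oip5 on the other strand in the GENCODE M21 annotation, and Oip5 moved the same way (13.4 ± 0.498 FPKM in control cells, 8.66 ± 0.208 with guide 1 and 10.2 ± 0.928 with guide 2, SD, n = 3). The libraries were stranded, but whether strand was used in counting is not given, so reads of this pair may not be told apart. Cdc25c, Kif22, Ncapg and Plk1 also share exon sequence with a gene on the other strand.

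The microtubule depolymerase Kif2c fell to 87.3% of control with guide 1 (limma adjusted p = 0.0128) and was at 99.9% with guide 2 (limma adjusted p = 0.996). Kif22, a chromosome arm kinesin, did not pass with guide 1 or guide 2 (91.0% and 91.2% of control, limma adjusted p = 0.0985 and 0.116). It has an annotated processed pseudogene, which could take part of its reads. Kif22 passed with guide 1 without guide 1 replicate 1 or control replicate 2 (adjusted p = 0.0227 and 0.0399), and with guide 2 without control replicate 2 (adjusted p = 0.0474).

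**Figure D4:**
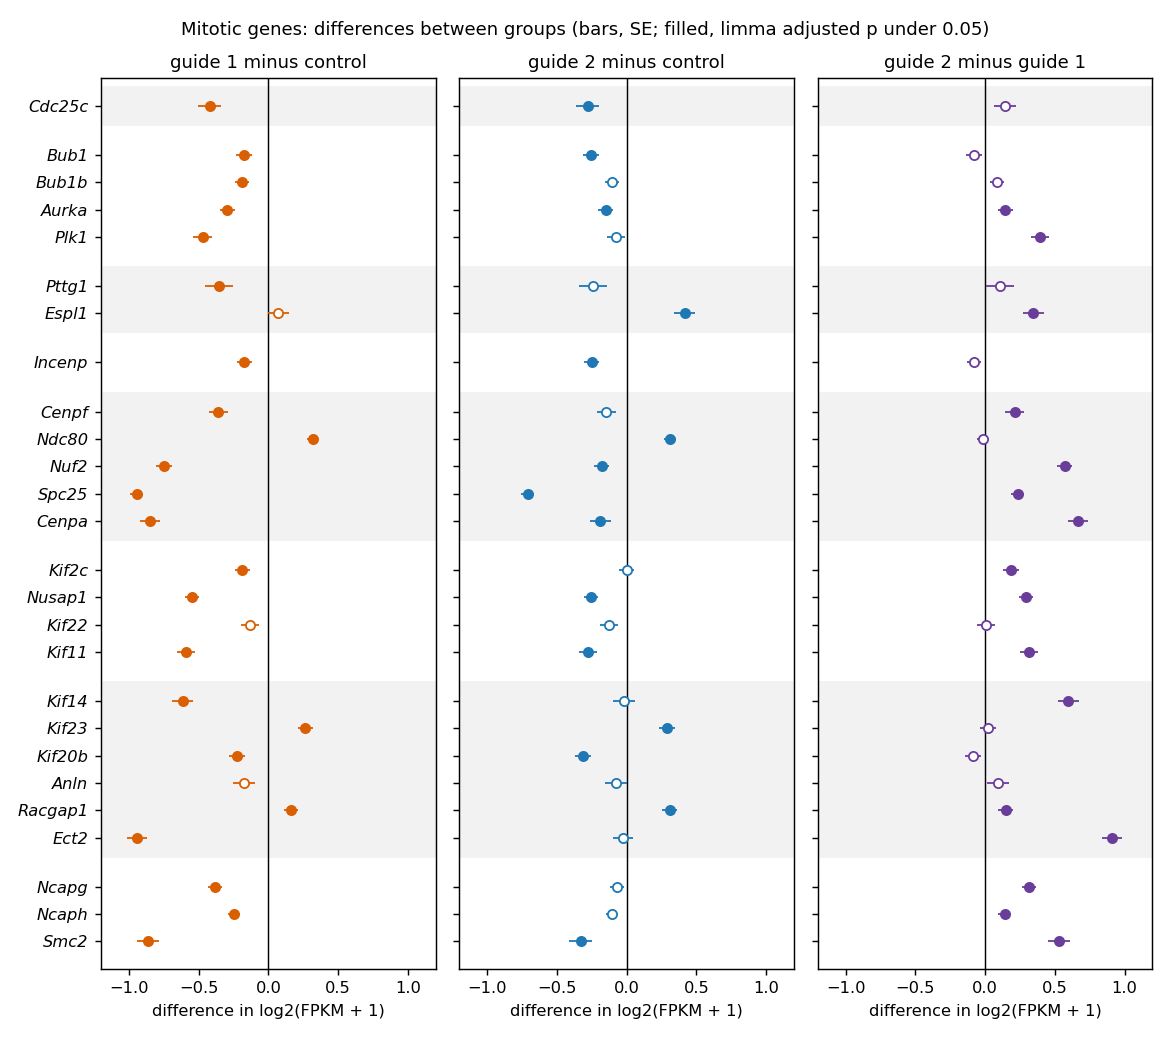
Difference in log2(FPKM + 1) for each of the 26 genes in 3 comparisons, with the SE of the model as bars and filled points for a limma adjusted p under 0.05. In the right panel 16 points are filled, all of them to the right of 0.

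Cytokinesis genes went both ways. Centralspindlin, made of the kinesin KIF23 and the GTPase-activating protein RACGAP1, gathers at the spindle midzone and recruits ECT2, the exchange factor that switches on RhoA to build the contractile ring. Ect2 was at 46.4, 42.1 and 48.5 FPKM in the control, 24.2, 21.1 and 24.8 with guide 1, and 42.6, 45.2 and 46.4 with guide 2. The guide 1 libraries held 51.1% of the control level, and the guide 2 libraries overlapped the controls. The log2 difference was -0.94 with guide 1 (SE 0.0714, limma adjusted p = 9.89e-07) and -0.03 with guide 2 (limma adjusted p = 0.759). Between guides it was 0.91 (SE 0.0714, limma adjusted p = 2.67e-06), the largest difference between guides of any member.

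Both centralspindlin genes rose. Kif23 was at 11.99, 12.4 and 13.4 FPKM in the control, 15.99, 14.8 and 15.2 with guide 1, and 15.0, 15.5 and 16.3 with guide 2. Racgap1 was at 42.2, 39.7 and 44.3 FPKM in the control, 47.1, 45.5 and 48.7 with guide 1, and 50.7, 52.3 and 53.7 with guide 2. In each gene all 6 knockout libraries lay above the controls. Kif23 rose by 0.27 with guide 1 and 0.29 with guide 2 (limma adjusted p = 0.00167 and 0.0011), and Racgap1 by 0.16 and 0.31 (limma adjusted p = 0.0164 and 0.000377). The guide 1 call of Racgap1 was lost without guide 1 replicate 3 or control replicate 2 (adjusted p = 0.063 and 0.0708).

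The ratio of Kif23 to Racgap1 was 0.299 ± 0.0141 (SD, n = 3) in control cells, 0.325 ± 0.0138 with guide 1 and 0.298 ± 0.00466 with guide 2, with guide 1 barely above the control range. In contrast, the ratio of Ect2 to Racgap1 was 1.08 ± 0.0201 in control cells, 0.495 ± 0.0275 with guide 1 and 0.856 ± 0.0143 with guide 2. The groups were separate in this ratio, guide 2 included, where Racgap1 was higher and Ect2 was not called.

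**Figure D5:**
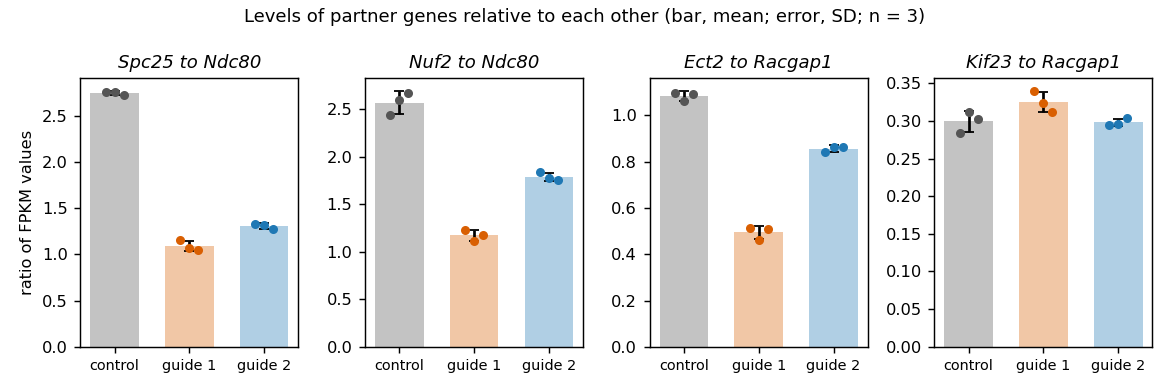
Ratio of FPKM values between partner genes of the NDC80 complex and of the centralspindlin and ECT2 pathway, by group (bars, mean; error bars, SD; points, 3 libraries). Spc25 to Ndc80, Nuf2 to Ndc80 and Ect2 to Racgap1 are highest in the control and lowest with guide 1, and Kif23 to Racgap1 stays between 0.284 and 0.339 in all 9 libraries.

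Kif14, a midbody kinesin that binds citron kinase, was the least abundant of the 26 genes and resembled Ect2. It stood at 5.98, 5.26 and 5.42 FPKM in the control, 3.02, 3.50 and 3.32 with guide 1, and 4.90, 5.87 and 5.65 with guide 2. The guide 1 libraries were below all others (59.1% of control, limma adjusted p = 3.91e-05), and guide 2 was at 98.5% (limma adjusted p = 0.835). Kif20b, another midzone kinesin, fell with both guides, to 84.7% and 79.5% of control (limma adjusted p = 0.0065 and 0.000941). Anln, the anillin scaffold of the contractile ring, did not pass with guide 1 or guide 2 (88.5% and 94.5%, limma adjusted p = 0.0754 and 0.391), except with guide 1 without guide 1 replicate 3 or control replicate 2 (adjusted p = 0.0309 and 0.0397).

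The condensin complex, which compacts chromosomes for segregation, was represented by its ATPase subunit Smc2 and the condensin I subunits Ncapg and Ncaph. Smc2 was at 40.1, 37.0 and 40.4 FPKM in the control, 21.8, 18.4 and 23.3 with guide 1, and 29.98, 29.9 and 32.9 with guide 2. The groups were separate, with guide 1 at 54.1% and guide 2 at 79.0% of control. The log2 differences were -0.86 and -0.33 (SE 0.0801 in each case, limma adjusted p = 4.61e-06 and 0.00419).

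Ncapg was at 18.1, 18.2 and 19.2 FPKM in the control, 13.8, 14.0 and 14.1 with guide 1, and 16.8, 17.2 and 18.8 with guide 2. It fell with guide 1 (log2 difference -0.38, limma adjusted p = 7.95e-05), and the guide 2 libraries overlapped the controls (-0.07, limma adjusted p = 0.267). Ncaph fell to 83.7% of control with guide 1 (limma adjusted p = 0.000595). With guide 2 it was at 92.6% (limma adjusted p = 0.0559), which passed without the filter on low values (adjusted p = 0.0441) and without control replicate 2 (adjusted p = 0.0381). The ratio of Smc2 to Ncaph was 1.26 ± 0.0220 (SD, n = 3) in control cells, 0.813 ± 0.0994 with guide 1 and 1.07 ± 0.0447 with guide 2, so Smc2 was lower relative to Ncaph in all knockout libraries.

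Set directly against each other, the guides differed in 16 of the 26 genes, and in all 16 the level was higher with guide 2. That is 61.5% of the members higher and 0% lower, where 31.2% of all tested genes were called higher with guide 2, 23.3% lower and 54.5% in either direction. The libraries of the guides did not overlap in 17 members higher with guide 2 and in 1 lower, Incenp, beside 34.8% and 26.6% of all tested genes, 61.5% in all. The median log2 difference of the members was 0.17, and over all tested genes it was 0.04. None was lower with guide 2, with limma adjusted p values of the members that had a negative difference (Bub1, Incenp, Ndc80 and Kif20b) between 0.212 and 0.832.

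The 5 largest differences between guides were in Ect2, Cenpa, Kif14, Nuf2 and Smc2, which with guide 1 stood at 52.1%, 61.8%, 59.9%, 66.2% and 68.5% of their guide 2 level. The members called lower with both guides numbered 11 and those called higher with both 3, where 26.2% and 22.6% of all tested genes were called so. These comparisons share the control libraries, and nothing is read from the counts. Of the 11 genes lower with both guides, 7 were also higher with guide 2 than with guide 1: Aurka, Cenpa, Nuf2, Spc25, Kif11, Nusap1 and Smc2. Of the 9 lower with guide 1 only, 7 differed between guides: Plk1, Cenpf, Kif2c, Kif14, Ect2, Ncapg and Ncaph. Both sets were sorted by the same guide values that enter the difference between guides, so no result is read from either count. Espl1 and Racgap1, both higher with guide 2 than with control, were also higher than with guide 1. Besides Aurka, the smallest of these differences were close to the threshold: Cenpf, Kif2c, Ncaph and Racgap1 (limma adjusted p = 0.0245, 0.0167, 0.0218 and 0.0326) each lost the call on leaving out guide 2 replicate 3, with adjusted p between 0.0659 and 0.105, and Cenpf, Ncaph and Racgap1 also without guide 2 replicate 2 and without a pair of the guide 1 libraries (replicates 1 and 3 for Cenpf, 2 and 3 for Ncaph, 1 and 2 for Racgap1), with adjusted p between 0.0535 and 0.109.

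A further 6 lists held 147 other genes of mitosis and its regulation, of which 90 were tested. The 90 include 14 transcriptional regulators of mitotic genes, among them Trp53 and Rb1. With guide 1, 45 of the 90 were lower and 22 higher, which is 50% and 24.4%, beside 37.9% and 30.2% of all tested genes. With guide 2, 30 were lower and 28 higher, which is 33.3% and 31.1%, about the shares of all tested genes, 33.5% and 31.9%. Between guides 41 were higher with guide 2 and 8 lower, which is 45.6% and 8.89%, beside 31.2% and 23.3%. The median log2 differences were -0.14, -0.05 and 0.15 in this order, and over all tested genes -0.04, -0.03 and 0.04. Among spindle genes, Cep192, a scaffold of centrosome maturation, fell from 8.36 ± 0.196 FPKM (SD, n = 3) to 4.15 ± 0.269 in the guide 1 libraries and 4.98 ± 0.257 in those of guide 2. Fam83d, a spindle protein, fell from 20.8 ± 1.03 to 12.2 ± 0.980 and 14.8 ± 0.937 FPKM.

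Of other kinetochore genes, Mis12, a subunit of the kinetochore base, stood at 17.0 ± 0.791 FPKM (SD, n = 3) among controls and 18.4 ± 1.31 with guide 1, short of the threshold (limma adjusted p = 0.163), and rose to 34.7 ± 1.57 with guide 2. The second named gene of that list is Oip5, which loads CENPA at centromeres and is described above. In the anaphase-promoting complex, Anapc5 fell from 96.7 ± 2.58 FPKM to 64.7 ± 0.484 and 68.8 ± 0.319, and Anapc11 rose from 6.23 ± 0.207 to 9.93 ± 0.616 and 9.87 ± 1.57, with guide 1 and guide 2 in this order. Of 10 tested genes of cohesin and other condensin, 6 were lower and 1 higher with guide 1, beside 37.9% and 30.2% of all tested genes. With guide 2, 4 were lower and 2 higher, which is 40% and 20%, beside 33.5% and 31.9%. The largest mean changes among them were falls: Pds5b went from 17.8 ± 0.931 FPKM to 11.2 ± 0.207 and 11.8 ± 1.04, and the cohesin acetyltransferase Esco2 from 10.5 ± 0.318 to 7.19 ± 0.124 and 7.92 ± 0.484.

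Among other regulators of mitotic entry, the kinase Nek6 fell from 18.6 ± 0.743 FPKM (SD, n = 3) to 9.82 ± 0.436 in the guide 1 libraries and 8.82 ± 0.255 in those of guide 2. Tpd52l1 rose from 1.01 ± 0.145 to 9.46 ± 1.15 and 4.89 ± 0.252 FPKM. In the list of transcriptional regulators of mitotic genes, Trp53, which encodes p53, rose from 40.3 ± 2.87 FPKM to 65.9 ± 2.57 under guide 1 and 94.9 ± 2.65 under guide 2 (log2 differences 0.70 and 1.22, limma adjusted p = 1.5e-06 and 3.06e-08). Rb1, the retinoblastoma gene that restrains E2F, fell from 6.10 ± 0.758 to 2.77 ± 0.364 and 4.09 ± 0.593 FPKM (limma adjusted p = 3.23e-05 and 0.003). For both genes the guides also differed, with Trp53 and Rb1 higher with guide 2.

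Genes of G1/S and DNA replication gave other counts in the comparisons with control. Of 41 tested, 17 were higher and 12 lower with guide 1, which is 41.5% and 29.3%, beside 30.2% and 37.9% of all tested genes. With guide 2, 22 were higher and 8 lower, which is 53.7% and 19.5%, beside 31.9% and 33.5%. The medians were 0.11 and 0.23, and over all tested genes -0.04 and -0.03. Between guides 17 were higher with guide 2 and 7 lower, which is 41.5% and 17.1%, beside 31.2% and 23.3%. The median difference between guides was 0.12, beside 0.17 for the 26 mitotic genes and 0.04 over all tested genes. Tyms, the thymidylate synthase, fell from 26.6 ± 0.580 FPKM (SD, n = 3) to 12.4 ± 0.874 under guide 1 and 23.1 ± 1.23 under guide 2. Orc1, a subunit of the origin recognition complex, rose from 3.44 ± 0.417 to 6.11 ± 0.557 and 6.10 ± 0.547 FPKM. No test was made of the difference between this list and the mitotic genes.

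Markers of the labelled cell type moved in the same libraries, and their part in these results was not tested. Of 18 squamous epithelial markers 9 had a row, and Krt5, Krt14 and Trp63 are among those not analysed here. Their summed level was 85.3 to 94.4 FPKM in the control libraries, 257 to 259 with guide 1 and 97.8 to 103 with guide 2. All 5 tested markers were called higher with guide 1 and 3 of them with guide 2, beside 30.2% and 31.9% of all tested genes. Mean levels in control, guide 1 and guide 2 libraries were 3.09, 20.85 and 7.99 FPKM for Jup. They were 2.23, 9.49 and 2.34 FPKM for Itga6, and 1.03, 2.99 and 1.61 FPKM for Sfn. Perp, a desmosomal protein, lay between 75.03 and 108 FPKM in all libraries. It was at 133% of control with guide 1 and 105% with guide 2 (limma adjusted p = 4.47e-05 and 0.213). The simple epithelial keratin Krt18 had mean levels of 3.70 FPKM in control cells, 119 under guide 1 and 5.01 under guide 2, and made up most of the rise in the sum with guide 1. Itgb4 and Krt17 had lower means with guide 1 than in the control (0.309 against 0.843 FPKM and 0.0666 against 0.125 FPKM), and Krt16 and Krt8 were listed at 0 in every control library. Of 12 fibroblast markers 4 had a row, with sums of 3.70 to 3.998 FPKM in the control, 8.81 to 12.2 with guide 1 and 13.8 to 14.6 with guide 2, and Dpt was listed at 0 in every knockout library. Twist2 had means of 2.51 FPKM in control cells, 9.25 with guide 1 and 5.60 with guide 2. Postn had means of 1.30, 1.61 and 7.83 FPKM in the same order. Of 14 leukocyte and endothelial markers 3 had a row, with sums of 0.473 to 0.875 FPKM in the control, 1.84 to 2.19 with guide 1 and 1.91 to 2.69 with guide 2. Cd68, a macrophage marker and the only one of them tested, had means of 0.652 FPKM in control cells, 1.35 with guide 1 and 2.16 with guide 2. Its control mean lay under the minimum of 1 FPKM, so it passed the filter only through the knockout libraries and its test is not used. Ptprc, the leukocyte marker CD45, is not analysed here.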

How the data were processed

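Poly(A) RNA of 9 libraries was measured. Sample titles gave the groups and the replicate numbers. The authors deposited 1 FPKM value for each gene in each library, per the file headers. Cutadapt, FastQC, HISAT2 and StringTie are listed in the submitters' processing notes. Tool versions, genome build and gene models were not given in the sources used here. The table had 15620 rows. The 174 rows of 62 repeated symbols and 8481 genes with a mean under 1 FPKM were left out. Other columns of per-sample values numbered 0, and 0 pairs of libraries were identical. FPKM removes the read total, so no count model was fitted.

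Values were analysed as log2(FPKM + 1), a scale that understates changes of low genes. A linear model over all 9 libraries was fitted with limma 3.58.1 in R 4.3.3, with a mean-dependent prior variance. P-values were adjusted by Benjamini-Hochberg over all 6965 genes, and genes were called at an adjusted p under 0.05. The model was run on simulated data with independent noise and few changed genes, changed alike in both guides. Most genes were called here, so that run checks the code and not the calls. Members and lists were chosen with earlier results of these data known, so no list was tested as a set. Per-library values were given for the members of each role with the largest changes, the largest difference between guides or the highest level. From each other list, up to 2 called genes with the largest mean change were described by group means or the test. The remaining members, the other markers and the FPKM ratios were chosen after their values were seen. Alternatives were a pseudocount of 0.1, no filter, quantile normalization, trimmed mean rescaling (30% off each end), a constant prior variance, the replicate number as a block, fits of the compared groups alone, and fits without 1 library at a time.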

Additional observations from a re-analysis of the deposited data

Results flagged for a closer look

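The effects of guide 1 and guide 2 differed, by the test of guide 2 against guide 1 (limma adjusted p under 0.05), in 16 mitotic genes. The log2 difference, guide 2 minus guide 1, was 0.91 for Ect2, 0.66 for Cenpa, 0.60 for Kif14, 0.57 for Nuf2 and 0.53 for Smc2. It was 0.39 for Plk1, 0.35 for Espl1, 0.31 for Kif11, 0.31 for Ncapg and 0.29 for Nusap1. The smallest were 0.23 for Spc25, 0.21 for Cenpf, 0.19 for Kif2c, 0.15 for Racgap1, 0.14 for Aurka and 0.14 for Ncaph.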

How the results depend on the processing

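The count of members called higher or lower stayed within 1.5 times its main value in each of the 4 comparisons under every alternative run. The median log2 difference of the members from control with guide 1, -0.32, was -0.27 after quantile normalization and -0.28 after trimmed mean rescaling, and between -0.34 and -0.28 on leaving out 1 library. The cause was not tested. No called member changed direction. All alternatives kept 20 of 23 calls with guide 1, 12 of 15 with guide 2, 11 of 16 between guides and 22 of 23 for the mean of both guides. In the last, the call of Pttg1 was lost without control replicate 2 (limma adjusted p = 0.0519), and without the same library Kif22 and Kif2c were gained (limma adjusted p = 0.0234 and 0.0277). Replicate numbers are shared by the groups, but same-numbered libraries did not all deviate together (r between -0.11 and 0.24). Between the guides, r was 0.24, 0.02 and 0.21 for the same number and -0.23 to 0.04 for different numbers. Between guide and control libraries it was -0.11 to 0.06 for the same number and -0.10 to 0.16 for different numbers. Whether same-numbered libraries share a batch is not given and was not tested. With the replicate number as a block, members called lower were 20 with guide 1 and 11 with guide 2, and 16 were higher with guide 2 than guide 1, the same counts as without it. The read depth behind each FPKM value is unknown, and 29 of 55 genes were not analysed here, so counts describe the members with a row.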
